A study of Mus musculus with 6 samples.

Results

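The choroid plexus is a sheet of secretory epithelium in the brain ventricles that makes the cerebrospinal fluid and controls what passes into it from the blood. At mid-gestation it is newly formed from the dorsal midline of the neural tube under BMP and Wnt signals, and its cells already make large amounts of transthyretin. The 10 genes described here mark this epithelium: Ttr, Folr1, Kl, Clic6, Aqp1, Enpp2, Sostdc1, Calml4, Prlr and Cldn1. They were chosen with earlier results of these data known. Every probe that the platform annotation gave to their gene symbols was taken. Of the 10 genes, 8 had at least 1 probe, with 12 probes in all, and 7 genes with 10 probes were detected often enough to be tested, out of 9408 named genes tested on the arrays.

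RNA was measured in E12.5 mouse brains on Illumina MouseRef-8 v2 arrays. The 3 knockout brains had the genotype Nestin Cre+ with Rest GTi/GTi and p53 fl/fl. The 3 control brains, from littermates, had Rest GTi/GTi and p53 fl/fl but no Cre. Both groups thus carried an inverted gene trap in both copies of Rest, a repressor of neuronal genes, and floxed copies of p53. All embryos were of strain C57/BL6. The paper describes the inverted trap as leaving Rest splicing normal until Cre turns it back, which ends transcription ahead of the coding sequence. Nestin Cre acts in neural progenitors and the cells they give rise to, so that only the knockout embryos were to lose REST and p53 there. The labels number the embryos of each group as biological replicates 1 to 3 and give neither litter, sex, slide nor scan day.

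Values below are log2 levels after background correction and quantile normalization, unless called intensities. A probe was called detected on an array where its detection p-value was under 0.05, and it was tested where it was detected on at least 3 of the 6 arrays. Each array detected between 52.2% and 54.1% of the probes. In limma, 0 of 13755 probes passed an adjusted p of 0.05 between knockout and control brains (0% of all tested), and 632 had an unadjusted p under 0.05. The single Rest probe was detected on 0 of the 6 arrays, so the loss of Rest could not be checked on these arrays, and p53 was not analysed here. Over all probes 1 array stood apart. The array of knockout replicate 2 had a first principal component score of 40.7, against -14.8 to -0.84 on the other arrays, on a component that held 32.5% of the variance, and 277 probes lay more than 1 log2 unit below the mean of the other arrays there, against 52 to 82 on each of the others. The main results are therefore given with and without that array. Xist was low on knockout replicates 2 and 3 and on control replicate 2, at 6.53, 6.53 and 6.61, against 12.13 to 12.31 on the other arrays. Embryos with low and high Xist were thus split unevenly between the groups, and what this adds to the differences was not tested.

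None of the choroid plexus genes passed the test, and the 2 with the largest differences, Ttr and Clic6, were far lower on 1 knockout array than on any other. By its brightest tested probe each of the 7 genes had a negative difference between knockout and control, against 48.7% of all probes tested. The differences ran between -2.28 for Ttr and -0.06 for Folr1 with a median of -0.44 on the log2 scale, where the median over all probes was 0.01. Of the 7 genes, 0 passed the adjusted test (0% of all probes), and 0 had an unadjusted p under 0.05 in the lower direction (2.34% of all probes). The levels of the 2 groups did not overlap for 1 of the 7, Ttr, which was lower in all 3 knockout brains, against 4.62% of all probes. Without knockout replicate 2 the median was -0.22 and 5 of the 7 differences were negative. These are whole brains, so fewer choroid plexus cells and less RNA per cell cannot be told apart.

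**Figure D1:**
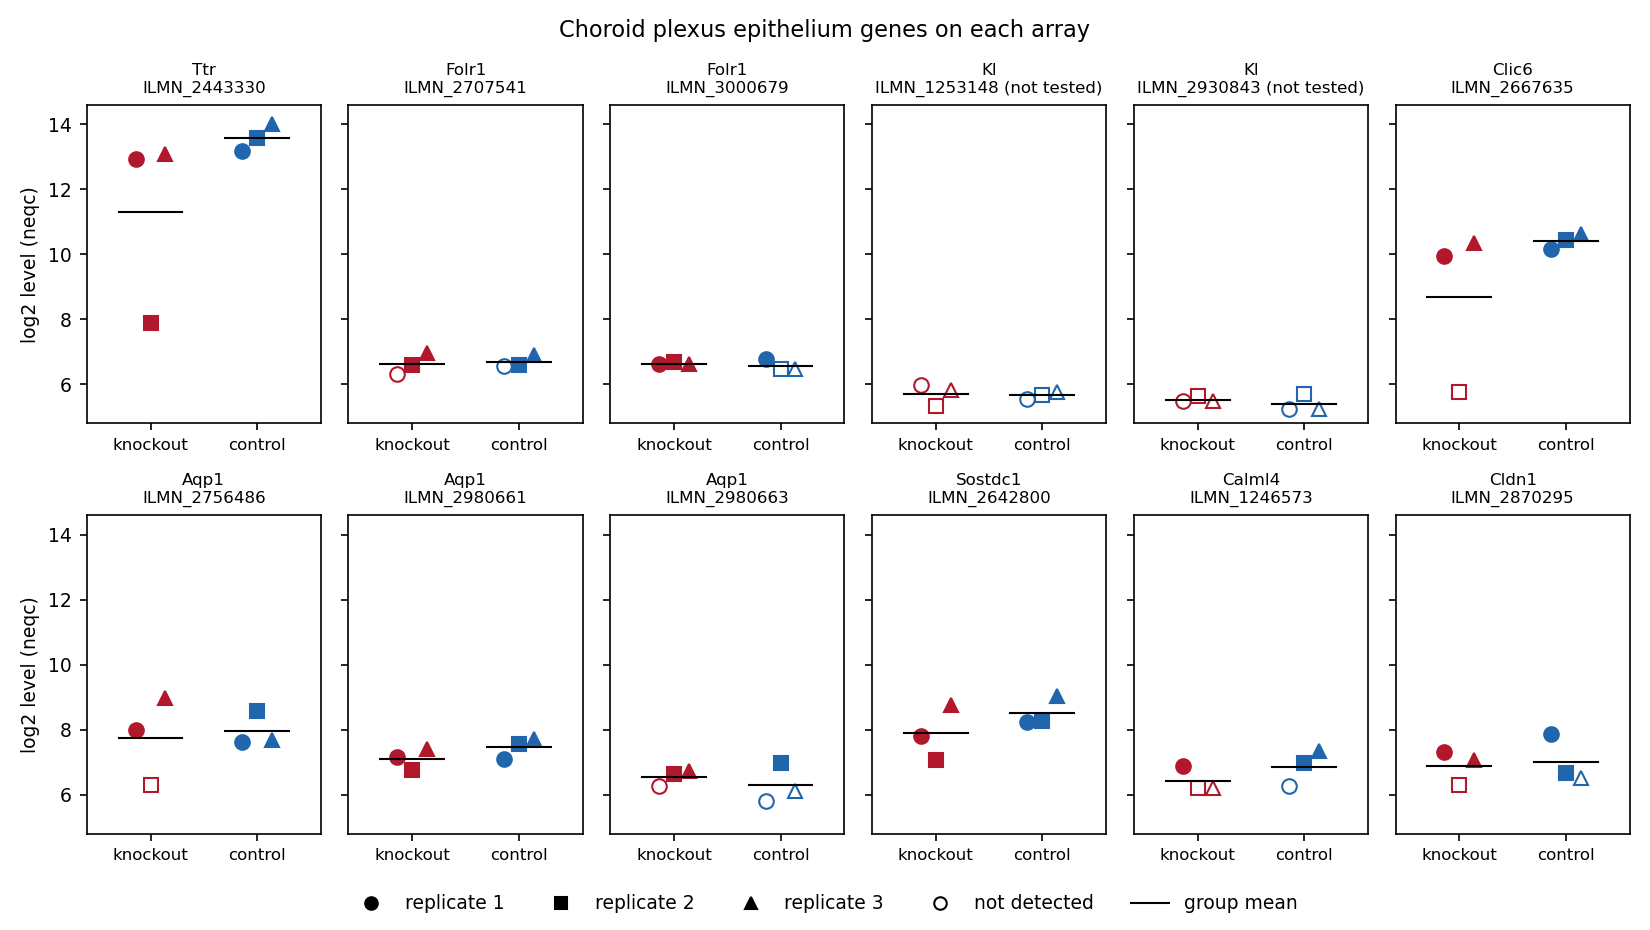
The log2 level of each of the 12 choroid plexus probes on every array, knockout to the left of control, with replicate numbers as symbols, open symbols where the probe was not detected and bars at the group means. Ttr and Clic6 show knockout replicate 2 at 7.89 and 5.75, far below the 5 other arrays, while the 2 Kl probes were not detected on any array.

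Ttr encodes transthyretin, the carrier of thyroid hormone and of retinol-binding protein in the cerebrospinal fluid, and is the main protein this epithelium secretes. Its probe had levels of 12.94, 7.89 and 13.10 in knockout brains 1, 2 and 3, against 13.19, 13.58 and 14.01 in control brains 1, 2 and 3. The deposited intensities behind these levels were 8132, 485 and 9038 in knockout brains, against 9616, 12469 and 16766 in control brains, and the probe was detected on all 6 arrays. All 3 knockout brains thus lay below all 3 control brains, 2 of them narrowly and 1 by a wide margin. Ttr averaged 11.31 ± 2.96 in knockout and 13.59 ± 0.41 in control brains (SD, n = 3 each), a difference of -2.28 (SE 1.32, 95% confidence interval -5.42 to 0.85), or 4.86-fold. No other tested probe had a more negative difference, and yet the test did not separate the groups (adjusted p = 0.999 in limma), since the knockout brains differed among themselves by more than the groups did.

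Set against the control mean, Ttr stood at -0.65, -5.70 and -0.49 in knockout brains 1, 2 and 3, while the control brains covered a range of 0.82. Relative to the mean of the 5 other arrays knockout brain 2 stood at -5.47 on the log2 scale, or 44.5-fold lower, which placed Ttr at rank 1 of 13755 probes by this measure. Without that brain the difference was -0.57 (SE 0.25, 95% confidence interval -1.19 to 0.05, adjusted p = 0.809), and the remaining 2 knockout brains were still below every control brain.

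Sostdc1, a secreted antagonist of BMP and Wnt signals, varied in the same direction with a smaller range. It had levels of 7.82, 7.07 and 8.76 in knockout brains 1, 2 and 3, against 8.24, 8.27 and 9.02 in control brains, and was detected on all 6 arrays. Knockout brain 3 reached above 2 of the controls, so the groups overlapped. The difference was -0.63 (SE 0.43, 95% confidence interval -1.66 to 0.40, adjusted p = 0.999), and -0.22 (SE 0.37, adjusted p = 0.950) without knockout brain 2, which stood at -1.36 from the mean of the other arrays.

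Among the channels, Clic6, a chloride intracellular channel protein, repeated the pattern of Ttr most closely. Its levels were 9.94, 5.75 and 10.36 in knockout brains 1, 2 and 3, against 10.15, 10.43 and 10.62 in control brains. The intensities were 1231, 274 and 1566 in knockout brains, against 1385, 1629 and 1822 in control brains. Knockout brain 3 lay within the controls' range, knockout brain 1 lay just under it, and in knockout brain 2 the probe was not detected, so its level there is only an upper bound. With that array set to the lowest signal detected on it, the 5 other arrays averaged at least 13.7-fold higher. The group difference was -1.71 (SE 1.13, 95% confidence interval -4.40 to 0.97, adjusted p = 0.999), with 2 of 3 knockout arrays and 3 of 3 control arrays detecting it. Without knockout brain 2 it was -0.25 (SE 0.20, adjusted p = 0.892). Ttr, Clic6 and Sostdc1 shared the ends of their order over the arrays: each was lowest in knockout brain 2, next lowest in knockout brain 1 and highest in control brain 3.

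Aqp1, the water channel of the ventricular face, had 3 probes, and these disagreed. The brightest, ILMN_2756486, had levels of 7.98, 6.31 and 8.96 in knockout brains 1, 2 and 3, against 7.61, 8.59 and 7.69 in control brains. Knockout brain 3 was the highest of all arrays and knockout brain 2, where the probe was not detected, the lowest. The difference was -0.21 (SE 0.65, adjusted p = 0.999), and without knockout brain 2 it turned to 0.51 (SE 0.41, adjusted p = 0.890). The second probe, ILMN_2980661, was detected on all 6 arrays at 7.15, 6.75 and 7.40 in knockout brains, against 7.10, 7.56 and 7.72 in control brains. Knockout brain 2 was again the lowest, at -0.64 from the mean of the others, and the difference was -0.36 (SE 0.23, adjusted p = 0.999). The third, ILMN_2980663, had a difference of 0.24 (SE 0.30) and stood 0.25 above the other arrays in knockout brain 2. No direction is given for Aqp1 for that reason.

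Folr1, the receptor that carries folate from blood to cerebrospinal fluid, was measured close to the limit of detection. Its probe ILMN_2707541 had levels of 6.33, 6.60 and 6.98 in knockout brains 1, 2 and 3, against 6.58, 6.59 and 6.92 in control brains, and ILMN_3000679 had 6.63, 6.68 and 6.62 in knockout brains, against 6.78, 6.46 and 6.46 in control brains. The first was detected in 2 knockout and 2 control brains, the second in 3 knockout brains and 1 control brain. Their differences were -0.06 (SE 0.20, 95% confidence interval -0.53 to 0.41) and 0.08 (SE 0.13, 95% confidence interval -0.24 to 0.39). Neither probe was low in knockout brain 2, where they stood -0.08 and 0.09 from the mean of the other arrays. Those means were 6.68 and 6.59, and the lowest level detected on that array was 6.53. A fall like that of Ttr or Clic6 could therefore not have been seen.

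The remaining tested genes encode Cldn1, a claudin of tight junctions, and Calml4, a calmodulin-like protein. Cldn1 had levels of 7.30, 6.30 and 7.07 in knockout brains 1, 2 and 3, against 7.86, 6.67 and 6.50 in control brains. The control brains alone spanned 1.36 log2 units, and the difference was -0.12 (SE 0.41, adjusted p = 0.999) with all arrays and 0.17 without knockout brain 2. Calml4 had levels of 6.88, 6.19 and 6.19 in knockout brains, against 6.25, 6.99 and 7.35 in control brains, with a difference of -0.44 (SE 0.32, 95% confidence interval -1.20 to 0.32, adjusted p = 0.999). It was detected in knockout brain 1 and in control brains 2 and 3 only, so its lower values are background. Here knockout brains 2 and 3 stood at about the same level.

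Kl encodes Klotho, the co-receptor for FGF23 that is also shed into the cerebrospinal fluid, and both of its probes were below detection on all 6 arrays, at levels of 5.33 to 5.99 and 5.24 to 5.71. No difference was computed for it. Enpp2, the secreted enzyme autotaxin that makes lysophosphatidic acid, and Prlr, the prolactin receptor, had no probe named in the annotation used and were not analysed here.

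**Figure D2:**
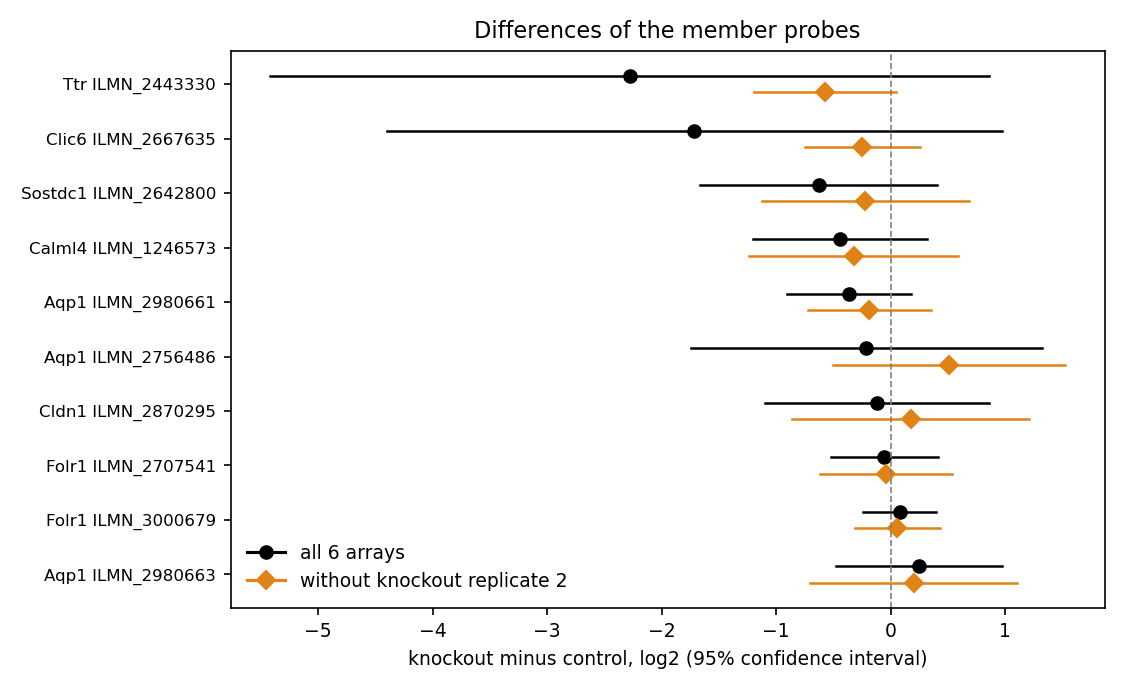
Differences between knockout and control brains for the 10 tested choroid plexus probes, with 95% confidence intervals, for all 6 arrays (black circles) and without knockout replicate 2 (orange diamonds). Every interval includes 0, and the Ttr difference is -2.28 with all arrays and -0.57 without that replicate.

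Knockout brain 2 was the lowest of the 6 arrays for 5 of the 7 genes, by their brightest probes, where 22.5% of all tested probes had their lowest level on that array. Of the 7 genes, 4 lay more than 1 log2 unit below the mean of the other arrays there (Ttr, Clic6, Aqp1 and Sostdc1), as did 2.01% of all probes. Aqp1 counts by its brightest probe only, and its other probes stood at -0.64 and 0.25 there. Clic6, Cldn1 and that brightest Aqp1 probe were not detected on this array, so their low values there are background. The array detected 6 of the 10 tested choroid plexus probes, and the other arrays 7 to 9 of them, although it detected 53.4% of all probes on the chip, within the range of the other 5. The summed linear level of the 7 genes, in which Ttr dominates, was 754 in knockout brain 2 and at most 11375 in the other knockout brains, against 11409 to 19194 in control brains.

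**Figure D3:**
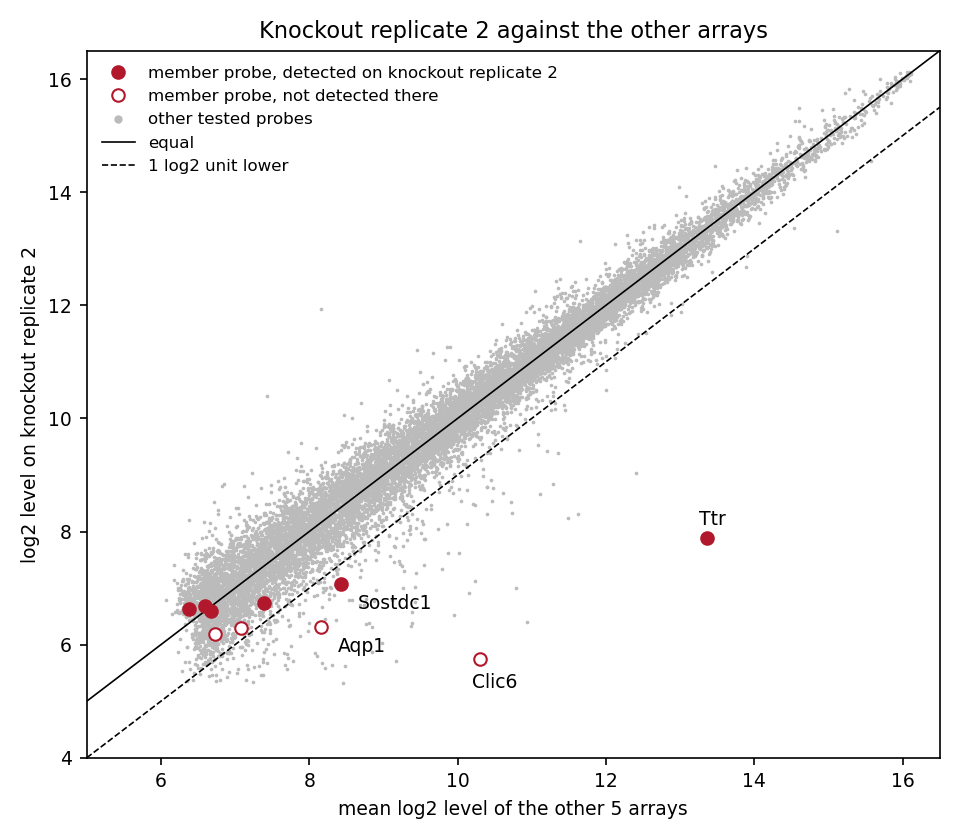
Log2 level on the array of knockout replicate 2 against the mean of the 5 other arrays for all 13755 tested probes (grey) and the 10 choroid plexus probes (red, open where not detected on that array). Ttr lies at -5.47 from the line of equal levels, further below it than any other probe, while the probes near 6.6 on both axes lie close to that line. Those probes are near the limit of detection, where a large fall could not be measured.

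The genes whose profile over the 6 arrays was most like the mean profile of the 7 choroid plexus genes were sought among 1612 named genes with a range of at least 1 log2 unit. The 7 genes did not all share that profile. Over 6 arrays Ttr correlated with Clic6 at 0.996 and with Folr1 at 0.21, and Cldn1 with Calml4 at -0.31. The 5 closest were Abcg5, Col3a1, Igf2, Itga11 and Phlda3, with Pearson correlations of 0.991 to 0.996 over 6 arrays and 0.752 to 0.876 over the 5 arrays without knockout replicate 2. These values describe mostly how low each gene was on that array, where Abcg5 stood at -2.43, Col3a1 at -3.32, Igf2 at -1.79, Itga11 at -3.23 and Phlda3 at -1.25 log2 units from the mean of the others. Abcg5 was not detected on that array, so its value there is background. Itga11 and Phlda3 were also lower in every knockout brain than in any control brain. Another Phlda3 probe, lower in every knockout brain too, had a difference of -0.77 (SE 0.17, adjusted p = 0.910 in limma). A dimmer Col3a1 probe was also lower in every knockout brain, with a difference of -1.19 (SE 0.22, adjusted p = 0.910 in limma). Its levels in knockout brains 1 and 2 were 6.43 and 5.90, below the lowest levels detected there, 6.57 and 6.53. These low values are therefore background. The brighter Col3a1 probe, used above, overlapped between the groups. Col3a1 is a fibrillar collagen and Igf2 a growth factor that both choroid plexus and meninges secrete.

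The wider set of genes used by this epithelium was described by lists. Of 27 genes for ion transport, carriers and junctions, 11 were tested, 0 passed and 8 had negative differences, with a median of -0.15, and -0.12 without knockout brain 2. Kcne2, a potassium channel subunit of the apical membrane, had levels of 6.90, 5.57 and 7.11 in knockout brains 1, 2 and 3, against 6.93, 7.26 and 7.68 in control brains. It was not detected in knockout brain 2, and its difference was -0.77 (SE 0.42, adjusted p = 0.999), or -0.29 without that brain. Slco1c1, a carrier of thyroid hormone, had a difference of -0.54 (SE 0.29) but stood 0.22 above the other arrays in knockout brain 2. Slc31a1, a copper importer, and Cldn12, another claudin, were lower in all 3 knockout brains by small margins, with differences of -0.19 and -0.18. Slc12a2 and Atp1b1, a cotransporter and a sodium pump subunit that drive fluid secretion but are made by many brain cells, had differences of -0.15 and 0.04.

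Of 24 genes for secreted proteins, receptors and epithelial markers, 12 were tested, 0 passed and 8 had negative differences, and their median log2 difference was -0.04 whether or not knockout brain 2 was included. Igf2 had levels of 14.88, 13.32 and 15.16 in knockout brains 1, 2 and 3, against 14.97, 15.36 and 15.22 in control brains, with a difference of -0.73 (SE 0.46, adjusted p = 0.999). Without knockout brain 2 the Igf2 difference was -0.16. Cd24a, a surface glycoprotein, had a difference of 0.44 (SE 0.27) and Trf, transferrin, of -0.33 (SE 0.22). Of 25 receptors and partners of the factors that the choroid plexus puts into the fluid, such as thyroid hormone receptors, lysophosphatidic acid receptors and LRP proteins, 17 were tested and 0 passed, with 13 negative differences and a median of -0.10, and -0.14 without knockout brain 2. Stra6, the retinol uptake receptor, was not detected in knockout brain 2 and had a difference of -0.60 (SE 0.31), while Lpar2 had one of -0.33 (SE 0.18) and Lpar1 one of -0.53 (SE 0.32). Without that brain Stra6, Lpar2 and Lpar1 stood at -0.30, -0.44 and -0.14.

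The dorsal midline from which the choroid plexus forms was examined through 26 roof plate and fate genes. Of these 19 were tested, 0 passed the adjusted test and 15 had negative differences, with a median of -0.22, and -0.15 without knockout brain 2. Rspo2, a secreted amplifier of Wnt signals, had levels of 8.75, 7.87 and 9.54 in knockout brains 1, 2 and 3, against 9.78, 9.81 and 9.95 in control brains. The groups did not overlap, and the difference was -1.13 (SE 0.39, adjusted p = 0.999), or -0.70 without knockout brain 2. Bmp7, a BMP ligand, had a difference of -0.90 (SE 0.46) and was not detected in knockout brain 2, and Zic1, a midline transcription factor, had one of -0.22 (SE 0.12) with no overlap. Without that brain Bmp7 and Zic1 stood at -0.39 and -0.18. In knockout brain 2, 11 of the 19 genes had their lowest level and 8 lay more than 1 log2 unit below the other arrays, among them Rspo3, another Wnt amplifier, at -2.45, and Msx1 and Wnt8b. Otx2 and Lmx1a, transcription factors needed for choroid plexus and roof plate fate, did not share the low level of Ttr in knockout brain 2. These are whole-brain levels, and how much of them came from choroid plexus or roof plate was not tested. Otx2 had levels of 13.41, 13.73 and 13.23 in knockout brains, against 13.26, 13.35 and 13.50 in control brains, with a difference of 0.09 (SE 0.16). Lmx1a had levels of 9.18, 10.02 and 9.68 in knockout brains, against 9.87, 9.75 and 9.32 in control brains, with a difference of -0.02 (SE 0.25). Of 8 genes of the cortical hem and midline, a list that shares members with the roof plate list, 6 were tested and all 6 had negative differences. Their median was -0.57, and -0.21 without knockout brain 2, with Rspo1, not detected in knockout brain 2, at -0.61, Wnt3a at -0.68 and Wnt8b at -0.54. Without that brain Rspo1, Wnt3a and Wnt8b stood at -0.16, -0.21 and -0.09. In knockout brain 2, 4 of the 6 lay more than 1 log2 unit below the other arrays, while Wnt5a and Lmx1a stood 0.60 and 0.46 above them.

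The choroid plexus epithelium bears tufts of motile cilia, and of 23 multiciliation genes 11 were tested. None passed the adjusted test, and 8 had negative differences with a median of -0.13, and -0.09 without knockout brain 2. Mcidas, a switch for the multiciliated fate, had levels of 6.32, 6.06 and 6.60 in knockout brains 1, 2 and 3, against 7.17, 7.11 and 6.87 in control brains. The groups did not overlap, and the difference was -0.72 (SE 0.17, adjusted p = 0.910), or -0.59 without knockout brain 2. The probe was detected in 1 knockout brain and 3 control brains, so 2 of the knockout values are background. Dynlrb2, a dynein light chain, had levels of 8.19, 6.80 and 8.30 in knockout brains, against 8.43, 8.64 and 9.10 in control brains, with no overlap and a difference of -0.96 (SE 0.41, adjusted p = 0.999). Ccno, a cyclin family protein of the same fate, had levels of 8.77, 6.38 and 9.65 in knockout brains, against 9.50, 9.14 and 9.88 in control brains. It was not detected in knockout brain 2, where the other arrays averaged at least 7.28-fold higher, and its difference was -1.24 (SE 0.77), or -0.30 without that brain. Foxj1, the regulator of motile cilia, had levels of 7.96, 7.92 and 7.99 in knockout brains, against 9.12, 7.70 and 8.15 in control brains, and did not stand out in knockout brain 2.

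Many markers of other cell types that a dissected brain can hold were also low on the same array. The 10 tested genes of mesenchyme and meninges all had negative differences, with a median of -0.89, and -0.09 without knockout brain 2. All 10 were lowest in knockout brain 2, where 8 lay more than 1 log2 unit below the other arrays, and their summed linear level was 3883 there and at most 14342 in the other knockout brains, against 10866 to 16025 in control brains. Dcn and Lum, small proteoglycans, and Col1a1, a collagen, had differences of -1.58, -1.43 and -1.63, and Col1a1 was not detected in knockout brain 2. Without that brain these differences were -0.98, -0.21 and -0.60. By the brightest probes, 1 of the 10 genes, Dcn, was lower in every knockout brain than in any control brain, against 4.62% of all probes. Of 8 tested genes of endothelium and pericytes 7 had negative differences, with a median of -0.42, and -0.20 without that brain. Sox17, Flt1 and Tie1 had differences of -0.91, -0.60 and -0.58, and of -0.54, -0.40 and -0.60 without that brain. Sox17 and Tie1, 2 of the 8 genes, were lower in every knockout brain than in any control brain, against the same 4.62%. Of the 8 genes, 5 were lowest in knockout brain 2 and 2 lay more than 1 log2 unit below the other arrays there. The 8 genes summed to 3121 in knockout brain 2 and at most 5505 in the other knockout brains, against 5192 to 5997 in control brains. The 6 tested erythroid genes had a median of -0.08, and of 0.23 without knockout brain 2, with Hba-a1 at -0.07, Slc4a1 at -0.15 and Hba-x at -0.12. In knockout brain 2, 5 of the 6 were lowest and 3 lay more than 1 log2 unit below the other arrays. Their median there stood at -0.77 from the control mean. Hba-a1 and Hbb-y were near the highest intensity on the arrays, which can compress their differences. The part that the amount of these tissues in each dissection had in the choroid plexus values was not tested.

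Ttr is also made outside the choroid plexus, in liver, visceral yolk sac and retinal pigment epithelium. Of 7 markers of liver and visceral endoderm, 1 was tested, Apoa1, at a difference of -0.24, and Alb and Afp were not detected often enough to be tested. Of 8 markers of retinal pigment epithelium and melanocytes 2 were tested. Dct, an enzyme of pigment synthesis, had levels of 6.04, 5.64 and 8.16 in knockout brains 1, 2 and 3, against 8.34, 7.93 and 7.92 in control brains, with a difference of -1.45 (SE 0.61, adjusted p = 0.999). It was detected in 1 knockout brain and 3 control brains, so its values in knockout brains 1 and 2 are background. Rlbp1, a retinal carrier, had one of -0.42 (SE 0.19), and Tyr, Tyrp1, Pmel, Mitf, Mlana and Rpe65 were not tested.

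Progenitor and neuron markers of the neural tissue were compared in the same way. The 5 tested neural progenitor genes all had positive differences with a median of 0.18, and 0.16 without knockout brain 2. Nes, Hes5 and Fabp7, which had the smallest p, stood at 0.18, 0.23 and 0.22, and Sox2 was lowest of the 6 arrays in knockout brain 2. Of the 6 tested genes of young neurons 4 had positive and 2 negative differences, with a median of 0.14 that turned to -0.03 without knockout brain 2. Tubb3, Dcx and Elavl3 had differences of 0.36, 0.20 and 0.23, against -0.04 for Elavl4 and -0.03 for Map2. In knockout brain 2 the median of the 6 genes stood 0.42 above the control mean. The Tubb3 probe was far dimmer than the rest, at 7.28 to 8.28, and stood at -0.23 from the mean of the other arrays there. By region, the 3 forebrain genes tested, Dlx1, Dlx2 and Lhx2, had a median of 0.01, and 0.05 without knockout brain 2. The 3 midbrain and hindbrain genes, En1, En2 and Gbx2, had one of -0.06, and -0.29 without it. On the array of knockout brain 2 the forebrain genes stood at -0.17 and the midbrain and hindbrain genes at 0.39 from the control mean, in the median.

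**Figure D4:**
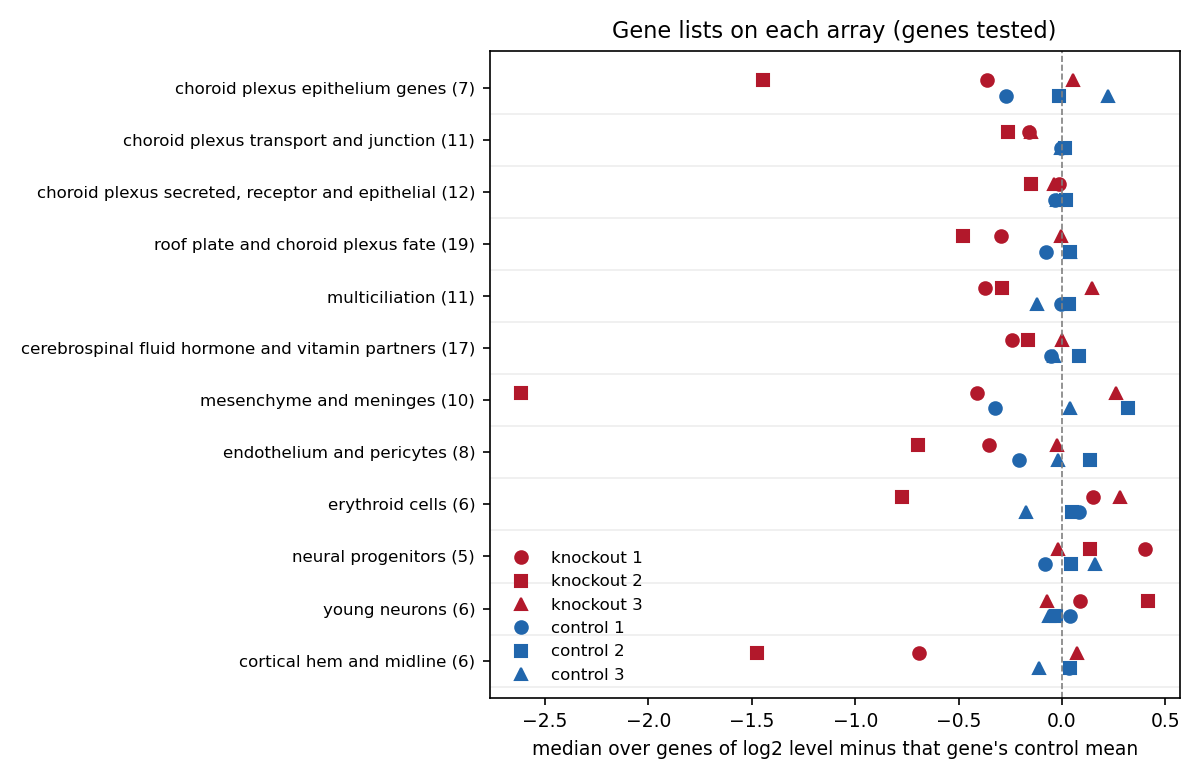
For each gene list with at least 5 tested genes (their number in brackets), the median over genes of the log2 level minus the same gene's control mean, with 1 symbol per array, knockout (red) above control (blue). Knockout replicate 2 stands at -1.45 for the choroid plexus genes, at -2.62 for mesenchyme and meninges and at -1.48 for cortical hem and midline, and at 0.42 for young neurons.

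Read array by array, the median of the 7 choroid plexus genes relative to the control mean was -0.36, -1.45 and 0.05 in knockout brains 1, 2 and 3, against -0.27, -0.02 and 0.22 in control brains 1, 2 and 3. For mesenchyme and meninges it was -0.41, -2.62 and 0.26 in knockout brains, against -0.33, 0.32 and 0.04 in control brains. For the cortical hem it was -0.69, -1.48 and 0.07 in knockout brains, against 0.03, 0.04 and -0.11 in control brains. Knockout brain 3 thus lay within the controls' range for the choroid plexus and mesenchyme lists and just above it for the cortical hem, knockout brain 2 was the lowest array in all 3 lists, and knockout brain 1 lay between them, below the lowest control in each.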

How the data were processed

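Total RNA of 6 brains was hybridised to 1 Illumina array each. The authors processed the arrays with BeadStudio 3.0 and quantile-normalized them with lumi; its version and any background subtraction are not given in the sources used here. For each probe there is a deposited intensity on a linear scale and a deposited detection p-value from negative control beads. Sorted intensities of the 6 arrays differed by at most 1.61%.

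The deposited table has 2 empty ID cells, after which 84.9% of its 25699 lines carry displaced IDs. The empty cells were dropped, IDs and values were paired in order and the 1 ID between the cells was left out, which gave 25696 probes. Over 6232 adjacent same-gene probe pairs after the empty cells, mean levels correlated at 0.482 at this offset of 2 lines, and at no more than 0.256 at the others tried. A second deposited table held the same values.

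Symbols came from the platform annotation, updated through gene identifiers. Intensities were processed with neqc of limma 3.58.1 (R 4.3.3, offset 16), which also repeats quantile normalization, and 13755 probes were compared with lmFit and eBayes, two-sided, without covariates, with Benjamini-Hochberg adjusted p-values over those 13755. The script was tested on simulated data. The brightest tested probe stood for a gene. In other lists the 3 genes with the smallest p were named, with markers that define a cell type, the bearers of roles described, and the 5 genes closest in profile. Differences are knockout minus control. The genes and lists were chosen with earlier results of these data known, so no list was tested. Arrays give no depth, and precision is limited by the 3 arrays per group. Same-numbered knockout and control samples had deviations that correlated at -0.01, -0.08 and -0.15, so the numbers were not taken as pairs.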

Additional observations from a re-analysis of the deposited data

How the results depend on the processing

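The count of probes past the adjusted threshold was 0 and became 1, with a smallest adjusted p of 0.00767, 0.0481 and 0.00153, on log2 of the deposited intensities, with normexp at an offset of 50 and with eBayes set to trend and robust. In each case that probe was not one of the choroid plexus genes, and the cause was not tested. Under every other setting run the count was 0, including the methods' t-test (624 at an unadjusted p under 0.05), leaving out any 1 brain (0 to 0) and the replicate block (552 unadjusted), and the count of choroid plexus genes that passed was 0 under all of them. With the replicate block the median over these genes stayed at -0.44 and 1 of them had an unadjusted p under 0.05. That median was negative under every setting, between -0.82 and -0.22 when 1 brain was left out, at -0.15 on log2 of the deposited intensities and at -0.11 with the IDs as deposited, where Ttr stood at -0.06. Leaving out 1 brain put Ttr between -3.18 and -0.57 (-0.57 without knockout replicate 2) and Clic6 between -2.55 and -0.25. Sostdc1 was 0.25 with the IDs as deposited. When 1 brain was left out, Folr1 ran between -0.23 without knockout replicate 3 and 0.093 without knockout replicate 1, and was 0.05 without control replicate 3. Aqp1 was 0.51 without knockout replicate 2 and 0.10 without control replicate 2. Leaving out control replicate 3 put Cldn1 at its lowest, -0.38, and leaving out control replicate 1 at its highest, 0.30; it was 0.17 without knockout replicate 2. The series' second table was not run, since its values were the same. Signal near background limits Folr1, Calml4, Cldn1 and Kl, so a change in these genes of the size seen for Ttr would not be measurable downward. A fall as large as that of Ttr in knockout brain 2 could not be measured in full for Sostdc1, Aqp1 or Clic6 either. By their brightest probes these averaged 8.42, 8.17 and 10.30 on the other arrays, and the lowest level detected on that array was 6.53.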
